A study of Bos taurus with 15 samples.

Results

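The p53 pathway genes described here are 9 genes of the bovine embryo, found in the count tables by their symbols. They are the p53 inhibitors MDM2 and MDM4, the cell cycle genes CDKN1A, CCNG1 and GADD45A, the death genes BBC3 and FAS, and the stress response genes TP53INP1 and SESN2. The deposited counts covered 34773 genes, and all 9 were among them. The shorter table of 10832 genes, from which the authors had removed genes with low counts, held 8 of the 9. BBC3 was present in the longer table only. The RNA came from blastocysts, embryos with an outer trophectoderm and an inner cell mass, that had been produced in vitro and are labelled as embryos of day 7. Control embryos (Co) were cultured without extracellular vesicles. FeEV-treated embryos received freshly prepared oviductal extracellular vesicles (oEVs), and FoEV-treated embryos received oEVs that had been frozen and thawed. The oEVs are small membrane-bound particles that carry RNA and protein, collected here from oviducts of slaughtered cows shortly after ovulation. Fluid from the same oviducts was divided into the fresh and the frozen preparation, so that freezing was the step that separated FeEV from FoEV. Each treatment had 5 libraries, and each library was made from 1 ng of RNA from 1 pool of 8 to 14 embryos. The pools were chosen for RNA quality from 6 Co, 7 FeEV and 8 FoEV pools.

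The transcription factor p53 is kept low in unstressed cells by MDM2, which marks it for degradation, and by MDM4, which blocks its activity. DNA damage and other stress release p53, mainly by changes to the protein and not to its mRNA. It then switches on genes that stop the cell cycle, start repair or lead to apoptosis, and it switches on MDM2 itself, which closes a feedback loop. Apoptotic cells are a regular sight in mammalian blastocysts, and embryos produced in vitro are exposed to culture stress.

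The libraries held 2136713 to 4058887 reads assigned to genes. Levels are given as CPM, the share of a library's counts scaled by TMM factors, and 1 read was worth 0.246 to 0.468 CPM. Every FoEV library held at least 3392613 counts, more than any Co library (2571558 to 2977004), whereas FeEV libraries spanned 2136713 to 3808602. Treatment and depth thus moved together in the FoEV treatment vs. Co comparison, and with counts thinned to the lowest library total the same 3 members (MDM4, CCNG1 and TP53INP1) had an unadjusted p under 0.05 in it as with all counts. Trophectoderm markers (CDX2, GATA3, GATA2, KRT8, KRT18, TFAP2C and TEAD4) summed to 6441 to 8675 CPM in Co, 7040 to 10481 in FeEV and 8349 to 11264 in FoEV. All 7 were higher on average in FoEV than in Co, where 52.3% of all genes had a log2 fold change above 0. An unadjusted p under 0.05 was reached by 4 of them (GATA3, GATA2, KRT8 and KRT18), beside 8.18% of all genes upwards. None had an adjusted p under 0.05. All 7 were also higher in FeEV than in Co (51% of all genes), none of them at an unadjusted p under 0.05. Inner cell mass markers (NANOG, POU5F1, SOX2 and KLF4) summed to 330.2 to 436 CPM in Co, 315 to 434 in FeEV and 314 to 505 in FoEV. Of these 4 markers, 2 were higher on average in FoEV than in Co, and 1 was higher in FeEV than in Co. Only NANOG had an unadjusted p under 0.05 in these comparisons, beside 6.88% (FoEV) and 2.32% (FeEV) of all genes downwards. NANOG alone averaged 80.4 ± 19.9 CPM (Co), 52.1 ± 13.2 CPM (FeEV) and 45.0 ± 16.7 CPM (FoEV; SD, n = 5), with log2 fold changes of -0.84 in FoEV treatment vs. Co (unadjusted p = 0.00641, edgeR adjusted p = 0.178) and -0.62 in FeEV treatment vs. Co (unadjusted p = 0.0342, edgeR adjusted p = 1.00). Hypoblast markers summed to 538 to 856 CPM in Co, 585 to 731 in FeEV and 543 to 738 in FoEV. Markers of oviduct epithelium summed to at most 14.3 CPM in any library, those of cumulus cells to at most 44.6, and those of leukocytes and blood to at most 12.4, with HBB at 0 in every library. HBA, named after its values were seen, had 17 and 19 reads in Co replicates 1 and 2 and 0 to 3 reads in every other library. The cumulus marker FSHR, also named after its values were seen, had a log2 fold change of -0.55 in FeEV treatment vs. Co (unadjusted p = 0.0254). At this threshold, 2.32% of all genes were lower there. CYP19A1, the other cumulus marker in the shorter table, was higher in the same comparison (0.23, unadjusted p = 0.401). After adjustment, neither of these cumulus markers stayed below 0.05. The part of these cell types and of depth in the results below was not tested further. In pools of whole embryos, fewer cells of a type and less RNA per cell cannot be told apart.

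All p53 pathway genes were measured in every library, and none differed between treatments at an adjusted p under 0.05. FoEV treatment vs. Co gave a lower fitted level for 9 of 9 genes, with a median log2 fold change of -0.21 against 0.01 over all 10832 genes. For comparison, 52.3% of all genes had a log2 fold change above 0. An unadjusted p under 0.05 was reached by 3 of the 9 (MDM4, CCNG1 and TP53INP1), where 15.1% of all genes reached it. In FeEV treatment vs. Co, 8 of 9 genes were lower, with a median of -0.24 against 0.00 over all genes, and 51% of all genes lay above 0. No member reached an unadjusted p under 0.05 there, where 4.15% of all genes did. In FoEV vs. FeEV treatment, 4 genes were higher and 5 lower (median -0.07 against 0.01, with 51.8% of all genes above 0), and 1 gene, MDM4, reached an unadjusted p under 0.05 (8.52% of all genes). The quasi-likelihood test of edgeR, its likelihood ratio test with robust dispersion and the Wald test of DESeq2 each called 0 members at an adjusted p under 0.05 in each comparison. DESeq2 gave no adjusted p to 3 members (CDKN1A, BBC3 and FAS) in FoEV treatment vs. Co. Over all genes, the quasi-likelihood test called 0.00923% in FoEV treatment vs. Co, which is 1 gene. It called 0 genes in FeEV treatment vs. Co and 0 in FoEV vs. FeEV treatment. The likelihood ratio test called 2.87% in FoEV treatment vs. Co, 0.0554% in FeEV treatment vs. Co and 0.286% in FoEV vs. FeEV treatment. DESeq2 called 2.4%, 0.00923% and 0.0277% of the genes to which it gave an adjusted p. Both comparisons with Co use the same 5 Co libraries and are therefore not independent. The libraries of any 2 treatments overlapped for each of the 9 genes, whereas 2.6% of all genes did not overlap in FoEV treatment vs. Co, 0.951% in FeEV treatment vs. Co and 1.5% in FoEV vs. FeEV treatment.

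**Figure D1:**
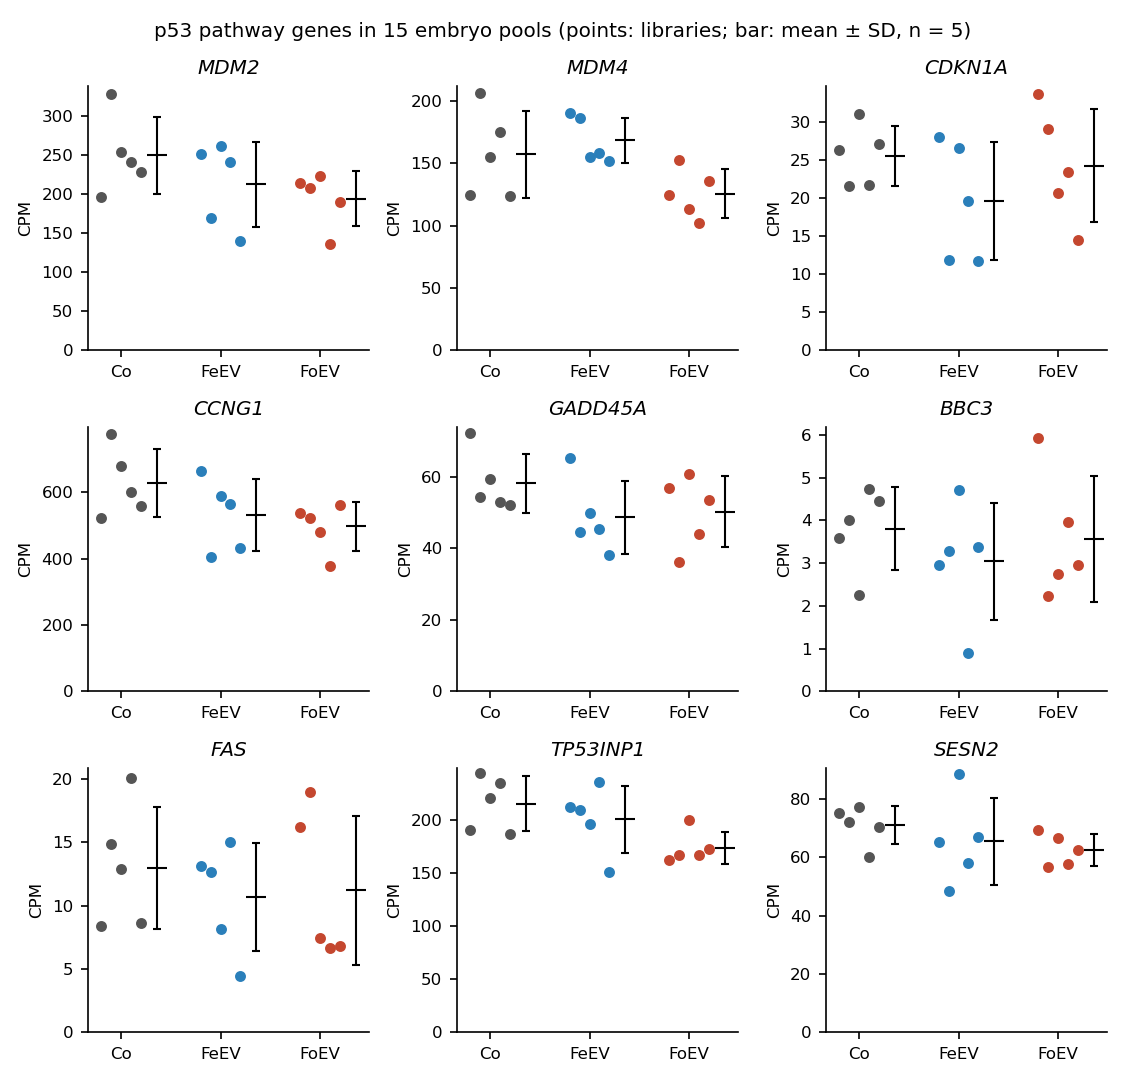
Level of each p53 pathway gene in each library, in CPM scaled by TMM factors on a linear axis, with Co, FeEV and FoEV side by side, points for single libraries in replicate order and a bar with whiskers for the mean and SD of 5 libraries. The 3 treatments overlap in every panel, and MDM2, for example, spans 139.9 to 328 CPM over the libraries.

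MDM2 (gene 540378) encodes the ubiquitin ligase of p53 and is also a p53 target, and its mean was highest in Co and lowest in FoEV. Its level was 196, 328, 254, 241 and 229 CPM in Co replicates 1 to 5. The FeEV libraries held 252, 169, 261, 240.5 and 139.9 CPM, and the FoEV libraries 214, 207, 223, 136 and 190.0 CPM. Co replicate 2 was the highest of the 15 libraries, and the lowest were FoEV replicate 4 and FeEV replicate 5. Co averaged 249.5 ± 49.0 CPM, FeEV 212 ± 54.4 and FoEV 194 ± 34.7 (SD, n = 5). The log2 fold change was -0.36 in FoEV treatment vs. Co (SE 0.18, 95% interval -0.74 to 0.02, unadjusted p = 0.0621, edgeR adjusted p = 0.358) and -0.23 in FeEV treatment vs. Co (SE 0.18, interval -0.62 to 0.15, adjusted p = 1.00).

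MDM4 (gene 514225), the partner of MDM2 that masks the activation domain of p53, was the member with the lowest unadjusted p between the oEV treatments. Its level was 125, 207, 155, 175 and 124 CPM in Co. It was 190.4, 186, 155, 158 and 152 CPM in FeEV and 125, 153, 114, 102 and 136 CPM in FoEV. The FoEV libraries lay below the FeEV libraries apart from FoEV replicate 2, which was slightly above FeEV replicate 5, whereas the Co libraries spread from 124 to 207 CPM. Co averaged 157 ± 35.2 CPM, FeEV 168 ± 18.3 and FoEV 126 ± 19.5 (SD, n = 5). FoEV vs. FeEV treatment gave a log2 fold change of -0.42 (SE 0.13, 95% interval -0.70 to -0.14, unadjusted p = 0.00485, edgeR adjusted p = 0.467). FoEV treatment vs. Co gave -0.32 (SE 0.13, interval -0.60 to -0.04, unadjusted p = 0.0256, edgeR adjusted p = 0.259), and FeEV treatment vs. Co gave 0.10 (SE 0.13, interval -0.18 to 0.38). MDM4 was the only member whose fitted level was higher in FeEV than in Co. In a later bovine annotation (ARS-UCD2.0), 1 long non-coding RNA gene overlaps MDM4, and the same holds for TP53INP1 and for FAS. The strand setting of the counting is not stated, so that reads of such neighbours cannot be told apart from reads of these 3 genes.

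CDKN1A (gene 513497) encodes p21, an inhibitor of cyclin-dependent kinases that holds the cell cycle on p53 activation, and its level differed more within the oEV treatments than between treatments. It stood at 26.3, 21.6, 31.0, 21.7 and 27.1 CPM in Co. The FeEV libraries gave 28.01, 11.9, 26.6, 19.6 and 11.7 CPM, and the FoEV libraries 33.6, 29.0, 20.7, 23.4 and 14.4 CPM. Co stayed within a narrow band, 3 FeEV libraries lay below it, and FoEV libraries lay on both sides of it. Means were 25.5 ± 3.96 (Co), 19.6 ± 7.76 (FeEV) and 24.2 ± 7.40 CPM (FoEV; SD, n = 5), and they correspond to log2 fold changes of -0.38 for FeEV treatment vs. Co (SE 0.25, 95% interval -0.91 to 0.15, unadjusted p = 0.148) and -0.07 for FoEV treatment vs. Co (SE 0.24, interval -0.58 to 0.44, unadjusted p = 0.775). FoEV vs. FeEV treatment gave 0.31 (SE 0.25, interval -0.21 to 0.83).

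CCNG1 (gene 281671) encodes cyclin G1, a p53 target that acts with a phosphatase on MDM2. Its level was 522, 776, 678, 602 and 559 CPM in Co, 663, 406, 589, 565 and 432 CPM in FeEV, and 538, 524, 481, 378 and 563 CPM in FoEV. As for MDM2, Co replicate 2 was the highest library and FoEV replicate 4 the lowest, and 3 of 5 FoEV libraries fell in the range of Co. Co averaged 627 ± 101 CPM, FeEV 531 ± 109 and FoEV 497 ± 72.6 (SD, n = 5). The log2 fold change was -0.34 in FoEV treatment vs. Co (SE 0.14, 95% interval -0.63 to -0.05, unadjusted p = 0.0256, edgeR adjusted p = 0.259). It was -0.24 in FeEV treatment vs. Co (SE 0.14, interval -0.53 to 0.05) and -0.10 in FoEV vs. FeEV treatment (SE 0.14, interval -0.39 to 0.20).

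GADD45A (gene 505463) encodes a small stress protein that acts in growth arrest and DNA repair. It was measured at 72.2, 54.3, 59.3, 52.98 and 52.1 CPM in Co, 65.3, 44.6, 50.05, 45.5 and 38.3 CPM in FeEV, and 57.0, 36.3, 60.9, 44.1 and 53.4 CPM in FoEV. Co replicate 1 was the highest library, and the lowest was FoEV replicate 2. The means were 58.2 ± 8.31, 48.7 ± 10.2 and 50.3 ± 10.005 CPM in Co, FeEV and FoEV (SD, n = 5). The log2 fold change was -0.21 in FoEV treatment vs. Co (SE 0.15, 95% interval -0.52 to 0.10) and -0.25 in FeEV treatment vs. Co (SE 0.15, interval -0.57 to 0.06). The value of FoEV treatment vs. Co was -0.12 without Co replicate 1, -0.11 without FoEV replicate 2 and -0.059 with a block on the number in the sample descriptions.

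BBC3 (gene 782359) encodes PUMA, a BH3-only protein that starts apoptosis at the mitochondria, and only 2 to 26 of its reads were counted per library. Its level was 3.59, 4.01, 2.26, 4.73 and 4.45 CPM in Co, 2.96, 3.30, 4.71, 0.906 and 3.37 CPM in FeEV, and 5.94, 2.23, 2.75, 3.96 and 2.96 CPM in FoEV. The lowest value, in FeEV replicate 4, rests on 2 reads, and the highest, in FoEV replicate 1, on 26. In a separate fit over the 17993 genes with at least 10 counts, the log2 fold change was -0.07 in FoEV treatment vs. Co (SE 0.36, 95% interval -0.81 to 0.66, edgeR adjusted p = 0.961) and -0.27 in FeEV treatment vs. Co (SE 0.38, interval -1.03 to 0.50, adjusted p = 0.995). Both intervals include falls and rises of BBC3, and the smallest change detectable at this depth was not computed.

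FAS (gene 282488) encodes a death receptor of the cell surface that p53 can induce. Its level was 8.39, 14.8, 12.9, 20.1 and 8.62 CPM in Co. It was 13.1, 12.6, 8.13, 15.0 and 4.47 CPM in FeEV and 16.2, 18.9, 7.44, 6.68 and 6.82 CPM in FoEV. Within FoEV, replicates 1 and 2 stood near the top of Co and the other 3 libraries below its lowest value. The highest library held 4.49 times the level of the lowest, the widest range among the members in the filtered table. The log2 fold change was -0.19 in FoEV treatment vs. Co (SE 0.36, 95% interval -0.94 to 0.56) and -0.31 in FeEV treatment vs. Co (SE 0.37, interval -1.08 to 0.47).

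TP53INP1 (gene 782667), a p53 target that promotes the death-inducing activity of p53 and takes part in autophagy, had the lowest unadjusted p of the members in FoEV treatment vs. Co. Its level was 191, 245, 221, 235 and 187 CPM in Co, 212, 209.8, 196, 236 and 151 CPM in FeEV, and 162, 167, 201, 167 and 173 CPM in FoEV. In FoEV, 4 libraries lay below every Co library, and only replicate 3 reached into the range of Co. Co averaged 216 ± 25.8 CPM, FeEV 201 ± 31.6 and FoEV 174 ± 15.4 (SD, n = 5). FoEV treatment vs. Co gave a log2 fold change of -0.31 (SE 0.11, 95% interval -0.54 to -0.08, unadjusted p = 0.00926, edgeR adjusted p = 0.192). FeEV treatment vs. Co gave -0.10 (SE 0.11, interval -0.33 to 0.12) and FoEV vs. FeEV treatment -0.21 (SE 0.11, interval -0.43 to 0.02, edgeR adjusted p = 0.602).

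SESN2 (gene 509863) encodes sestrin 2, which restrains mTORC1 signalling under stress. Its level was 75.1, 72.2, 77.1, 60.2 and 70.2 CPM in Co, 65.3, 48.3, 88.5, 57.8 and 67.0 CPM in FeEV, and 69.2, 56.8, 66.4, 57.8 and 62.4 CPM in FoEV. The highest and the lowest of the 15 libraries were both FeEV libraries, replicates 3 and 2. The log2 fold change was -0.18 in FoEV treatment vs. Co (SE 0.13, 95% interval -0.45 to 0.08) and -0.11 in FeEV treatment vs. Co (SE 0.13, interval -0.38 to 0.15).

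**Figure D2:**
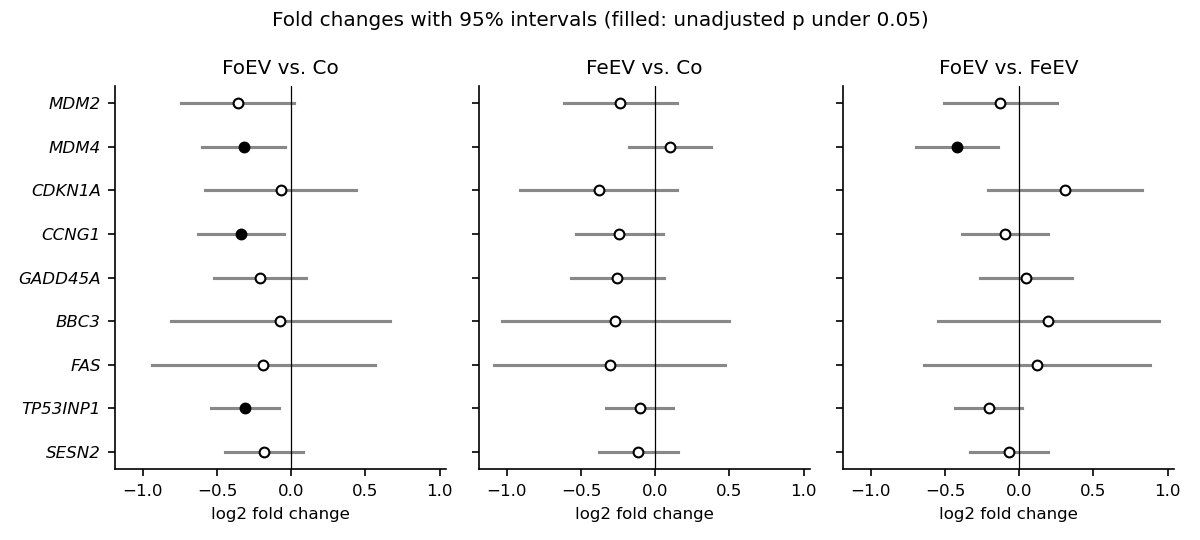
Log2 fold change of each p53 pathway gene in the 3 comparisons, with 95% intervals from the edgeR fits as bars, a line at 0 and filled points where the unadjusted p was under 0.05. In FoEV treatment vs. Co all 9 points lie below 0 and the intervals of MDM4, CCNG1 and TP53INP1 end below it, and in FoEV vs. FeEV treatment only that of MDM4 does.

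Leaving out single libraries changed how many members passed the unadjusted threshold. In FoEV treatment vs. Co, 1 member (TP53INP1) instead of 3 remained under 0.05 without Co replicate 2 and also without FoEV replicate 4, the libraries at the ends of the ranges of MDM2 and CCNG1. In FeEV treatment vs. Co, 3 members (CCNG1, GADD45A and CDKN1A) instead of 0 were under 0.05 without FeEV replicate 1, and 1 (SESN2) without FeEV replicate 3. In FoEV vs. FeEV treatment, TP53INP1 joined MDM4 without FeEV replicate 5 and without FoEV replicate 3, which gave 2 members.

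Beyond the members, a wider list of 48 genes covered relatives and regulators of p53, damage kinases, and targets in arrest, apoptosis, repair and metabolism. The filtered table held 42 of them. FoEV treatment vs. Co gave 18 higher and 24 lower levels, with a median log2 fold change of -0.04. An unadjusted p under 0.05 was reached by 7 of the 42, 4 higher and 3 lower, where 8.18% of all genes reached it upwards and 6.88% downwards. The quasi-likelihood test called 0 of them at an adjusted p under 0.05, the likelihood ratio test with robust dispersion 3 (APAF1, ZMAT3 and PLK2, all lower) and DESeq2 2 (APAF1 and ZMAT3, both lower). These counts stand beside the 2.87% and 2.4% of all genes given above, and DESeq2 gave no adjusted p to 15 genes of the list. Without a filter on low counts, the quasi-likelihood test called 1 gene of the list (ZMAT3) and 0.679% of all genes. Over all genes, the quasi-likelihood test called 0.00923% in this comparison, which is 1 gene. Without Co replicate 2, and likewise without FoEV replicate 4, 2 instead of 7 genes of the list had an unadjusted p under 0.05. It was 3 without Co replicate 5, and 4 without Co replicate 3 or 4.

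APAF1 (gene 537782), the scaffold on which caspase-9 is activated after mitochondrial release of cytochrome c, was lower in each FoEV library than in each Co library. Its level was 37.9, 40.1, 39.3, 54.2 and 41.0 CPM in Co, 36.1, 40.1, 29.4, 28.7 and 35.8 CPM in FeEV, and 27.3, 34.8, 30.3, 28.7 and 31.3 CPM in FoEV. It was the only one of the 42 genes of the list without overlap in this comparison, where 2.6% of all genes did not overlap. The log2 fold change was -0.48 in FoEV treatment vs. Co (SE 0.13, 95% interval -0.74 to -0.21, edgeR adjusted p = 0.123) and -0.32 in FeEV treatment vs. Co (unadjusted p = 0.0226, edgeR adjusted p = 1.00). The adjusted p of FoEV treatment vs. Co was 0.0343 with the likelihood ratio test and 0.0355 with DESeq2.

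ZMAT3 (gene 538512), an RNA-binding zinc finger protein induced by p53, had the lowest log2 fold change of the 7 genes. Its level was 92.6, 167, 112, 116 and 114 CPM in Co, 117, 66.8, 105, 82.9 and 70.4 CPM in FeEV, and 77.1, 103, 75.8, 45.1 and 77.1 CPM in FoEV. Co replicate 2 was again the highest and FoEV replicate 4 the lowest library, and FoEV replicate 2 was the only FoEV library in the range of Co. FoEV treatment vs. Co gave -0.67 (SE 0.21, 95% interval -1.10 to -0.23, edgeR adjusted p = 0.170), and the adjusted p was 0.0359 with the likelihood ratio test, 0.0377 with DESeq2 and 0.00776 with the quasi-likelihood test on genes without a filter. FeEV treatment vs. Co gave -0.44 (SE 0.21, unadjusted p = 0.0489, edgeR adjusted p = 1.00).

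The third gene with a lower level in FoEV than in Co at an unadjusted p under 0.05 was ATM. This kinase signals DNA double-strand breaks to p53 and had 153 ± 18.7 CPM in FoEV and 181 ± 26.2 in Co (log2 fold change -0.24, SE 0.11, edgeR adjusted p = 0.290). The 4 genes with higher levels were HIPK2, a kinase of p53, with 17.4 ± 5.27 CPM in FoEV and 12.4 ± 2.63 in Co, E2F7, a repressor of cell cycle genes, with 16.6 ± 1.26 and 12.4 ± 2.66, BAX, which permeabilizes the outer mitochondrial membrane, with 34.6 ± 7.15 and 27.2 ± 1.14, and FDXR, a mitochondrial reductase, with 22.04 ± 5.00 and 17.2 ± 1.49 (SD, n = 5). Their edgeR adjusted p-values were 0.312, 0.303, 0.308 and 0.313. The apoptosis targets APAF1 and ZMAT3 thus had the opposite sign to BAX. In all, 4 of the 10 apoptosis targets in the table were higher and 6 lower.

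FeEV treatment vs. Co gave 20 higher and 22 lower levels of the wider list (median log2 fold change -0.03). An unadjusted p under 0.05 was reached by 4 genes, all lower, where 2.32% of all genes reached it downwards and 1.83% upwards. No gene of the list passed the adjusted threshold with the quasi-likelihood test, the likelihood ratio test or DESeq2. Beside APAF1 and ZMAT3, these were PLK2, a p53-induced kinase of the centrosome, with 76.2 ± 32.2 CPM in FeEV and 125 ± 17.997 in Co (log2 fold change -0.72, SE 0.32), and AEN, a nuclease of apoptosis, with 69.1 ± 3.58 and 80.0 ± 4.78 CPM (-0.21, SE 0.10). AEN was the 1 gene of the list whose libraries did not overlap in this comparison, where 0.951% of all genes did not overlap. The 4 genes fell to 0 without Co replicate 4, to 1 without Co replicate 2 or FeEV replicate 2, 3 or 5, and to 2 without Co replicate 3, Co replicate 5 or FeEV replicate 4. In FoEV vs. FeEV treatment, 24 genes were higher and 18 lower (median 0.01). Where 4.83% of all genes were higher and 3.69% lower at an unadjusted p under 0.05, the only gene of the list was ATM, with 153 ± 18.7 CPM in FoEV and 189 ± 15.5 in FeEV (-0.30, SE 0.11, edgeR adjusted p = 0.496), and no gene of the list passed the adjusted threshold with the 3 tests. All 5 damage kinases had a positive log2 fold change in FeEV treatment vs. Co (median 0.06), where 51% of all genes lay above 0. The values ran from 0.007 (CHEK1) to 0.14 (PRKDC), and none had an unadjusted p under 0.05. In FoEV treatment vs. Co, 4 of the 5 had a negative value (median -0.16), where 52.3% of all genes lay above 0. Only ATM had an unadjusted p under 0.05 there. None of the kinases passed an adjusted threshold in any comparison.

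**Figure D3:**
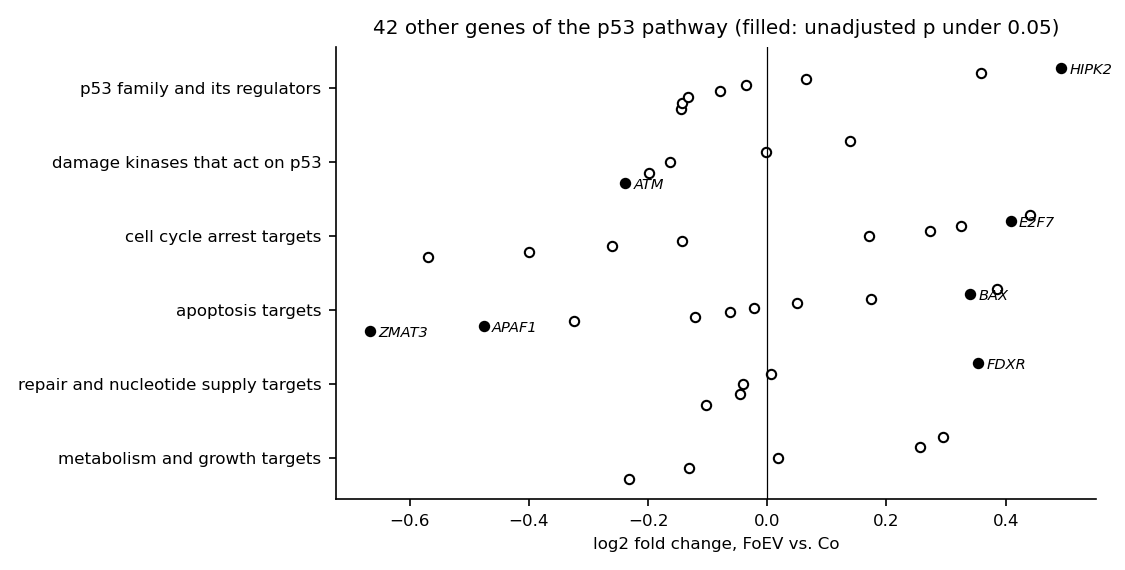
Log2 fold change of the 42 genes of the wider p53 list in FoEV treatment vs. Co, with 1 point per gene in rows by role, filled where the unadjusted p was under 0.05 (named). Every role has points on both sides of 0, and the 7 filled points run from ZMAT3 (-0.67) to HIPK2 (0.49).

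Genes of cell division, which p53 and p21 repress when active, were counted as a whole. Of the 10 genes (among them CCNB1, CDK1 and MKI67), 5 were higher and 5 lower in FoEV treatment vs. Co (median log2 fold change -0.02). An unadjusted p under 0.05 was reached by 1 upwards and 1 downwards, beside 8.18% and 6.88% of all genes. In FeEV treatment vs. Co, 7 were higher and 3 lower (median 0.05), with none at an unadjusted p under 0.05, beside 4.15% of all genes. FoEV vs. FeEV treatment gave 4 higher and 6 lower (median -0.07), with 1 lower at an unadjusted p under 0.05, beside 3.69% of all genes. The lower gene was BUB1, a kinase of the spindle checkpoint, in FoEV treatment vs. Co and in FoEV vs. FeEV treatment, named after its values were seen. BUB1 averaged 94.7 ± 3.72 CPM (Co), 93.2 ± 6.88 CPM (FeEV) and 80.7 ± 6.37 CPM (FoEV; SD, n = 5), and its FoEV libraries all lay below its Co libraries. Such a lack of overlap was seen in 2.6% of all genes in FoEV treatment vs. Co. The log2 fold change of BUB1 was -0.23 in FoEV treatment vs. Co (edgeR adjusted p = 0.219) and -0.21 in FoEV vs. FeEV treatment (edgeR adjusted p = 0.539).

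Libraries of the same treatment differed in p53 targets, and some members varied together. After the treatment mean was taken from log2 CPM, MDM2 and CCNG1 followed each other over the 15 libraries (Pearson r = 0.892, permutation p = 0.00087, adjusted p = 0.0244 over 28 pairs of the 8 members in the filtered table). Spearman rho was 0.839 (permutation p = 0.00136, adjusted p = 0.0381), and r was 0.860 without FeEV replicate 5 and FoEV replicate 4, the libraries farthest from the median of MDM2. Of the 28 pairs, 22 had r above 0, with a median of 0.403 and a range from -0.360 (SESN2 and FAS) to 0.892, and no other pair had an adjusted p under 0.05. The permutations kept each library in its treatment. All genes of a library share its pool, its depth and its scaling.

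Among all 10831 other genes of the filtered table, CCNG1 had the highest r to MDM2, followed by CCT8 (0.866) and ZMAT3 (0.855). For CCNG1 the order was MDM2, PTP4A1 (0.880) and ZMAT3 (0.877). MDM2, CCNG1 and ZMAT3 thus stood among the genes closest to one another, although ZMAT3 was no member and the ranking ran over the whole table. For CDKN1A the closest genes were NR4A1 (0.865), LMO4 (0.863) and MMP25 (0.862), none of them a member. The median r to MDM2 was 0.0123 over all genes and 0.211 over the 42 genes of the wider list, of which 12 exceeded the 90th percentile of all genes (r = 0.446). The same count was 10 of 42 for CCNG1 and 7 of 42 for CDKN1A. These r values describe 15 libraries and carry no test.

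**Figure D4:**
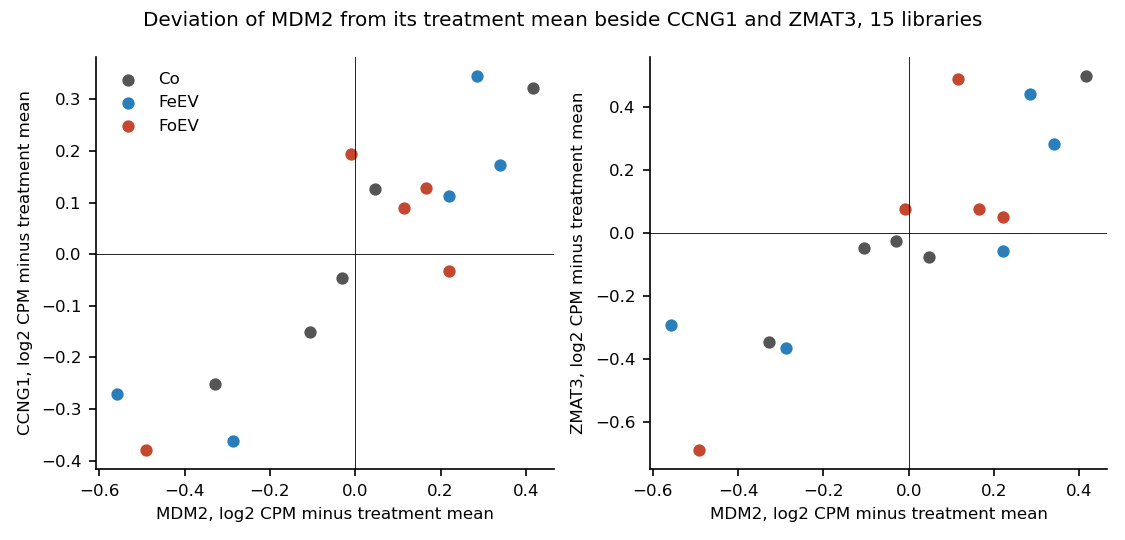
Log2 CPM minus the treatment mean in each of the 15 libraries, with MDM2 on both x axes, CCNG1 and ZMAT3 on the y axes, and 1 point per library coloured by treatment. Libraries with more MDM2 than their treatment mean mostly held more CCNG1 too (r = 0.892), and the points still rise together without the 2 libraries farthest out (r = 0.860).

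The sample descriptions end in a number from 1 to 7 that differs in most libraries from the replicate number of the titles, and the labels do not say what it marks. Each number stands on at most 3 libraries, too few to follow MDM2 and CCNG1 within 1 number. In a fit with this number beside treatment, made after seeing the data, 4 of the 8 members in the filtered table had an unadjusted p under 0.05 for the number (MDM4 0.0176, MDM2 0.0193, FAS 0.0280 and CCNG1 0.0295, quasi-likelihood test of edgeR), where 7.46% of all genes had one. CDKN1A followed with 0.0590 and TP53INP1 with 0.0880, whereas GADD45A had 0.409 and SESN2 0.762. None of them passed the adjustment over all genes (lowest adjusted p = 0.541). Over all genes, 0.0462% passed it, which is 5 genes. Taken alone, the number took up a median of 60.0% of the variance of log2 CPM of the members and 44.8% over all genes. Treatment alone took up 20.5% and 14.9%. With 15 libraries, a number with 7 values takes up more variance by chance than 3 treatments do. The shares of the number and of treatment can therefore not be compared with each other. What the number marks was not tested.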

How the data were processed

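RNA of 15 pools of bovine blastocysts (5 each of Co, FeEV and FoEV) was sequenced. The authors mapped the reads to ARS-UCD1.2 and deposited raw counts per gene without normalization, for 34773 genes and, after a filter on low counts, for 10832. Their methods name QuasR Qcount in Galaxy, while the submitters' processing notes list Trim Galore 0.4.3.1, HISAT2 2.1.0 and featureCounts 1.6.3, so the counting tool is not settled here. The methods give 8 days of culture and the labels day 7. Samples were grouped by title, and 0 columns stayed unmapped.

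Filtered counts of all 15 libraries were fitted together with edgeR 4.0.16 in R 4.3.3 (TMM factors, glmQLFit with robust=TRUE, glmQLFTest, treatment as the only factor), with the Benjamini-Hochberg adjustment over all genes. BBC3, absent from the filtered table, came from the same fit on the 17993 genes with at least 10 counts over the 15 libraries. Intervals of log2 fold changes are 95% intervals of the fit. The p-values measure the spread between pools, whose separate culture runs are not given in the sources used here. Depth ran from 2136713 to 4058887 counts. With a floor of 3 reads, the smallest readable share was 7.39e-05% to 0.00014%, which covers counting error only. No 2 libraries were duplicates: at least 10512 filtered genes differed between any 2.

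The alternatives were DESeq2 size factors, library totals only, no filter (25470 genes with at least 1 count), a filter of 10 CPM in 5 libraries, the robust dispersion with likelihood ratio test of the methods, the Wald test of DESeq2 1.42.0, fits of only the 2 groups compared, both blocks on numbers in the labels, and leaving out each library. Thinning to equal depth, the correlations and the term for the number in the sample descriptions were chosen after seeing the data. The correlations used log2 CPM with a prior count of 2 and 100000 permutations within treatments (Python 3.11.15, numpy 2.4.6, scipy 1.17.1). The members and lists were chosen with earlier results of these data known. All members are named, and so are genes of the wider list with an unadjusted p under 0.05 in a comparison (at most 8), the 3 genes most like MDM2, CCNG1 and CDKN1A, and flagged genes. PLK2 in FoEV treatment vs. Co was named after its values were seen. Some items of the wider list are not reported here, and its counts leave them out. The scripts were tested on simulated data. Gene symbols matched a later assembly (ARS-UCD2.0) by identifier for 10709 of 10832 genes, so no coordinates are given. Transcript lengths were not used here, so levels are not compared between genes.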

Additional observations from a re-analysis of the deposited data

Results flagged for a closer look

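In 4 of 57 groups of 5 libraries (19 named genes in 3 treatments), 1 library lay far from the other 4 by Dixon's criterion, where chance alone would give about 1 in 20 groups. For the member TP53INP1, FoEV replicate 3 held 200.6 CPM, above the other FoEV libraries and within the range of Co. For APAF1, Co replicate 4 held 54.2 CPM, and without this library the log2 fold change of FoEV treatment vs. Co was the nearest to 0 of the values with 1 library left out (-0.38). For AEN, Co replicate 4 was also the library apart, with 88.3 CPM. For PLK2, FoEV replicate 1 held 146.8 CPM, the highest of the 15 libraries, whereas the other FoEV libraries were below the lowest Co library. No explanation of these values was tested.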

How the results depend on the processing

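No member had an adjusted p under 0.05 under any setting or with any library left out. Of 396 fold changes under the other settings, 385 kept their direction and side of the threshold, 5 newly passed it (APAF1 and ZMAT3 in FoEV treatment vs. Co, values in the report) and 6 turned. With 1 library left out, 587 of 600 were kept and 13 turned. The cause of these shifts was not tested.

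Members with an unadjusted p under 0.05 in FoEV treatment vs. Co (3) were 1 with library totals only and 1 to 4 with a library left out. In FeEV treatment vs. Co (0), the members at this threshold were 4 without a filter, 1 with the likelihood ratio test and 1 with the replicate block. There was 1 with a block on the number in the sample descriptions, and 0 to 3 with a library left out. In FoEV vs. FeEV treatment (1), they were 2 without a filter, 2 with the likelihood ratio test and 1 to 2 with a library left out. Shares of all genes at an unadjusted p under 0.05 were computed for the main fit only (15.1%, 4.15% and 8.52% in the 3 comparisons). Over all genes, adjusted calls in FoEV treatment vs. Co were 1 in the main fit, 173 without a filter and 57 with the replicate block. Whether the counts of members and of the wider list only followed such shifts was not tested. Of the wider list in FoEV treatment vs. Co, 0 genes were called, against 1 without a filter (ZMAT3), 3 with the likelihood ratio test and 2 with DESeq2, where 0.679%, 2.87% and 2.4% of all genes were called. Its genes with an unadjusted p under 0.05 were 7, against 3 with DESeq2, 11 with the replicate block and 2 to 9 with a library left out. In FeEV treatment vs. Co they were 4, against 0 with library totals only, 1 with thinned counts and 0 to 4 with a library left out. In FoEV vs. FeEV treatment they were 1, against 2 without a filter, 3 with the likelihood ratio test and 4 with the replicate block. There were 2 with a block on the number in the sample descriptions, 3 with thinned counts and 1 to 3 with a library left out.

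Of the 27 fold changes of members, 22 moved by over 1.5 times under at least 1 setting (16) or with a library left out (21), and none of the 27 passed the adjusted threshold under any of them. Among those with the same sign throughout, GADD45A in FoEV treatment vs. Co ranged from -0.29 to -0.059 over the settings and from -0.29 to -0.11 with a library left out. With the main setting, the fold changes that turned ranged from -0.19 (FAS, FoEV treatment vs. Co) to 0.19 (BBC3, FoEV vs. FeEV treatment). With a block on the number in the sample descriptions, log2 fold changes were 0.031 for MDM2 and 0.047 for CCNG1 in FoEV vs. FeEV treatment. With the same block they were -0.054 for MDM4 in FeEV treatment vs. Co and 0.14 for CDKN1A in FoEV treatment vs. Co. FAS in FoEV vs. FeEV treatment was -0.071 with the likelihood ratio test and -0.00354 with thinned counts. With a library left out, FoEV treatment vs. Co ranged from -0.22 to 0.068 for CDKN1A, -0.35 to 0.060 for BBC3 and -0.46 to 0.013 for FAS. FoEV vs. FeEV treatment ranged from -0.087 to 0.39 for BBC3, -0.036 to 0.18 for GADD45A, -0.16 to 0.065 for SESN2 and -0.15 to 0.26 for FAS.

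Deviations of libraries with the same replicate number in their titles were compared with those of other pairs. In FoEV and Co their mean r was 0.034 (1 of 5 pairs over 0.1), against -0.0084 in other pairs. It was 0.138 (3 of 5) against -0.034 in FeEV and Co, and 0.186 (3 of 5) against -0.046 in FoEV and FeEV. Same-numbered pairs thus had the higher mean r in each comparison, and whether the numbers pair the libraries was not tested. Over all genes, the replicate block called 57 at an adjusted p under 0.05 in FoEV treatment vs. Co, where the main fit called 1. With the replicate block, 2 members in FoEV treatment vs. Co (MDM4 and TP53INP1), 1 in FeEV treatment vs. Co (GADD45A) and 1 in FoEV vs. FeEV treatment (MDM4) had an unadjusted p under 0.05, and 11 genes of the wider list in FoEV treatment vs. Co. No block changed an adjusted call of a member. Low counts limit BBC3 (2 to 26 reads) and FAS (16 to 75 reads).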

Other observations

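Of the wider list, 6 genes were absent from the filtered table, and they belong to several arms of the pathway. CDKN2A, whose locus encodes the MDM2 inhibitor ARF, had 0 to 4 reads per library, and 4 of the 5 Co libraries had 0. GLS2, a glutaminase, had 0 to 3 reads and TP73, a relative of p53, 1 to 9. DDB2, a sensor of UV damage, had 3 to 16 reads, TP53I3 5 to 26 and SIVA1 4 to 19. In the fit on the longer table that also gave BBC3, 1 of these 6 genes had an unadjusted p under 0.05 in 1 comparison. SIVA1, an apoptosis target, had 3.79 ± 1.25 CPM in FoEV and 2.22 ± 0.761 in FeEV (SD, n = 5), with a log2 fold change of 0.76 in FoEV vs. FeEV treatment (SE 0.36, unadjusted p = 0.0444, edgeR adjusted p = 0.655).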
